A study of Homo sapiens with 2 samples.

Results

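The ATP-binding cassette (ABC) transporters were followed here in sorted cells of RMG1, an ovarian clear cell adenocarcinoma cell line. The family was taken by name. Every gene probe found on both arrays counted if its gene name was ABC, followed by one letter from A to G and a number. This gave 46 genes with 67 probes, out of 34127 gene probes in all, and the rule uses no measured value, although it was written with earlier results of these data known. RMG1 cells were sorted with the ALDEFLUOR assay into ALDEFLUOR high cells (ALDH+, assay positive) and ALDEFLUOR low cells (ALDH-, assay negative), and total RNA of both populations was hybridised together on human Agilent microarrays. The question of the study was which genes differ in expression between ALDH+ cells, taken as cancer stem-like cells, and ALDH- cells of the same line.

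The design held 1 RNA extract of each population on 2 arrays. On the first array the ALDH+ RNA carried the dye Cy5 and the ALDH- RNA carried Cy3, and on the second array the dyes were exchanged. Both populations came from the same line grown in the same medium, and no second line or second sort was included. The labels name RMG1 as the source of both channels, whereas the methods of the study name the line AMOC2 in the paragraph on the array RNA. The labels were followed. Because the arrays shared the same 2 extracts, they counted as 1 replicate, so the populations were compared without a test, and each SD given below is the technical spread between the 2 arrays.

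ABC transporters bind and split ATP to move substrates across membranes, and the family is divided into subfamilies by sequence. Members of subfamilies A and G mostly move sterols and phospholipids, members of B and C include the multidrug pumps that carry anticancer drugs and conjugated metabolites out of the cell, D members import fatty acids into the peroxisome, and E and F members are soluble proteins of translation. ABCB1 (P-glycoprotein), ABCC1 to ABCC6 and ABCG2 are the drug efflux pumps most often named in work on chemoresistance and on stem-like cells. They also touch the sort itself, since the ALDEFLUOR assay buffer contains inhibitors of ABC transporters that keep the fluorescent product inside the cells.

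Each gene was read by oligonucleotide probes of 60 bases, and the sequences of those on which the results turn are given 5′ to 3′. The probes of ABCB1 and ABCG2 are shown because these pumps were not well above background, the pair of ABCC3 probes because they gave different ratios, and ABCC4, ABCC5, ABCA9 and ABCG1 because their ratios were among the farthest from 0. The ABCB1, ABCC4 and second ABCC3 probes are shown whole, and of each other probe the first 30 bases are shown. Positions are those of the array design on the genome build hg19. The 2 ranges that exceed the probe length belong to probes placed across a splice junction. Exon and UTR positions were not analysed here.
ABCB1, chr7:87135313-87138603, minus strand: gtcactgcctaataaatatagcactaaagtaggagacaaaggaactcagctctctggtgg
ABCB1, chr7:87229435-87229494, minus strand: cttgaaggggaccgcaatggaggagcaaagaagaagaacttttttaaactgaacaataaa
ABCG2, chr4:89011503-89011562, minus strand: gtcccttacagttctctatatatacccttc
ABCC3, chr17:48768701-48768760, plus strand: gtaactgtgctgaatgctttagatgaggaa
ABCC3, chr17:48745220-48745279, plus strand: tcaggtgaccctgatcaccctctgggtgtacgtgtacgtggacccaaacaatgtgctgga
ABCC4, chr13:95813571-95815416, minus strand: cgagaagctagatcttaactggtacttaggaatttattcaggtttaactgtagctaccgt
ABCC5, chr3:183637742-183637801, minus strand: tcgccttagcatgtttgctgaacaccttgt
ABCA9, chr17:66971063-66971122, minus strand: gaaatacctgatgtagatgatgggttgatg
ABCG1, chr21:43716784-43716843, plus strand: atttaaagctgcaacacagctggtgatgag

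A gene was called measured if its probe was well above background on both arrays in at least one population, by the flag of the array software. By this rule 24 of the 46 ABC genes (52.2%) were measured, beside 13720 of 27267 genes (50.3%) on the whole array. The whole-array genes include entries without a gene symbol, which were counted by their accession or probe name. Of the 24, 23 had such a signal in all 4 channels, and the exception was ABCA13, which had it in ALDH+ cells on 1 array. The 22 other genes were ABCA2, ABCA5, ABCA6, ABCA8, ABCA10, ABCA12, ABCB1, ABCB4, ABCB5, ABCB9, ABCB11, ABCC2, ABCC8, ABCC9, ABCC11, ABCC12, ABCC13, ABCD2, ABCG2, ABCG4, ABCG5 and ABCG8. No fold is given for them. In 14 of these 22 no channel was well above background. The other 8 passed the flag in 1 or 2 channels, among them ABCA12, ABCB9, ABCC8 and ABCG5 in the Cy5 channel of both arrays, which the rule did not accept because Cy5 held another population on each array. All 4 genes of subfamilies E and F were measured, as were ABCB8 and ABCB10, carriers of the mitochondrial inner membrane. In contrast, ABCC8 and ABCC9, the sulfonylurea receptors of potassium channels, and ABCB11, the bile salt export pump of the liver, were not.

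Between the populations, the largest differences were on the lower side. ABCA9, ABCC3, ABCG1 and ABCC4 were lower in ALDH+ than in ALDH- cells by more than 1.5-fold, and no measured member was higher by that much in the main processing. ABCC3 passed on the brighter of its 2 probes and not in their mean, which leaves 3 genes. Each of these 3 was read by 1 probe, and whether the ABCA9 probe also binds repeat sequences was not tested. ABCA4 was past 1.5-fold higher with a smaller offset or with the ratio of the array software, and ABCC5 with median centring or on the first array alone. One criterion of the study's screen was an expression more than 2-fold higher in ALDH+ cells. By the ratio of the array software, ABCG1 was past 2-fold lower. In the main processing, none of the 24 passed 2-fold in either direction. On the whole array, 0.211% of measured genes were past 2-fold higher and 0.707% past 2-fold lower in ALDH+ cells. At 1.5-fold the shares of all measured genes were 1.51% higher and 4.59% lower, beside 0 and 16.7% of the ABC genes. These are values from 1 extract of each population, and in such bulk RNA fewer cells that carry a transcript and less of it per cell cannot be told apart.

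The centre of the family did not move with these 4 genes. The median log2 ratio of ALDH+ over ALDH- cells over the 24 measured members was -0.03, with -0.01 on the first array and -0.06 on the second. Over all 13720 measured genes it was -0.002, and over the 214 measured solute carriers, the other large family of membrane transporters, it was -0.03. The log2 ratios of the ABC genes ran from -0.97 to 0.51 and had an SD across genes of 0.38, beside 0.30 over all genes and 0.34 over the solute carriers. A total of 5 ABC genes lay above 0 on both arrays (all measured genes 33.7%) and 7 lay below 0 on both (all measured genes 36.1%), while the sign changed with the dye orientation for the other 12. Thus 12 of 24 ABC genes kept their sign, beside 69.7% of all measured genes. Also, 12 of the 24 had a mean ratio larger than its technical SD, which was so for 60.8% of all measured genes.

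**Figure D1:**
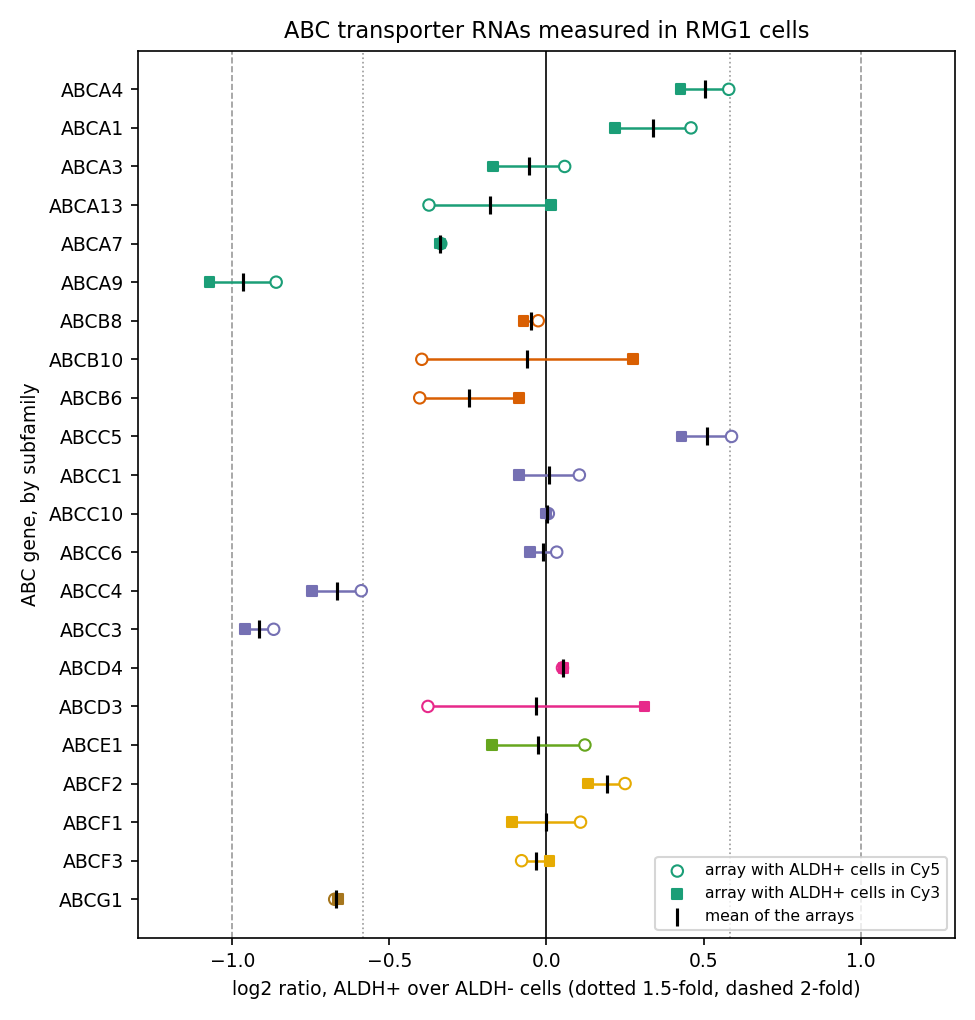
Log2 ratio of ALDH+ over ALDH- RMG1 cells for 22 of the 24 measured ABC genes, coloured and ordered by subfamily. Open circles are the array with ALDH+ RNA in Cy5, squares the array with the dyes exchanged, and black ticks their mean. ABCA9, ABCC3, ABCC4 and ABCG1 lie beyond the dotted 1.5-fold line on the lower side, and no mean crosses a dashed 2-fold line.

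Among the 8 drug efflux pumps, 5 were measured (ABCC1, ABCC3, ABCC4, ABCC5 and ABCC6) and 3 were not (ABCB1, ABCC2 and ABCG2). ABCC6 was measured on probes designed on a short transcript, while its probe for the full-length transcript missed the rule. ABCC5 was higher and ABCC3 and ABCC4 were lower in ALDH+ cells on both arrays, whereas ABCC1 and ABCC6 stayed near 0 with signs that differed between arrays. The median of the 5 log2 ratios was -0.01, with 0.03 on the first array and -0.09 on the second. Thus the measured pumps did not share a direction.

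ABCB1 exports taxanes and anthracyclines and is the pump most often tied to drug resistance. The mean signal of its probe near the 3′ end, printed in 10 spots, was 57.9 in ALDH+ and 136 in ALDH- cells on the first array, and 135 and 48.9 on the second. Those values followed the dye and not the population. The negative control spots, which have no target in the sample, had median signals of 45.1 in Cy5 and 135 in Cy3 on the first array, and 43.1 in Cy5 and 127 in Cy3 on the second. The ABCB1 probe was therefore close to the negative control spots of the same dye in every channel. Of its 10 spots, 0 were well above background in ALDH+ cells on either array, and in ALDH- cells 0 were on the first array and 1 on the second. The second ABCB1 probe was not above background in any channel.

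ABCG2, the pump that defines the side population of stem-like cells in dye efflux assays, gave signals of 61.4 in ALDH+ and 162 in ALDH- cells on the first array, and 153 and 60.7 on the second. The single ABCG2 probe was not well above background in any channel. For comparison, 95% of the negative control spots were below 59.1 in Cy5 and 155 in Cy3 on the first array, and below 50.6 and 146 on the second, so the ABCG2 signals lay just over that level in all 4 channels. ABCC2, which exports conjugates and platinum complexes, gave 75.5 in ALDH+ and 158 in ALDH- cells on the first array and 149 and 73.8 on the second. It was well above background only in ALDH- cells on 1 array. The ABCC2 signals also lay over the level of 95% of the negative control spots in all 4 channels. For these pumps no ratio was taken, and a difference between ALDH+ and ALDH- cells was not detectable.

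**Figure D2:**
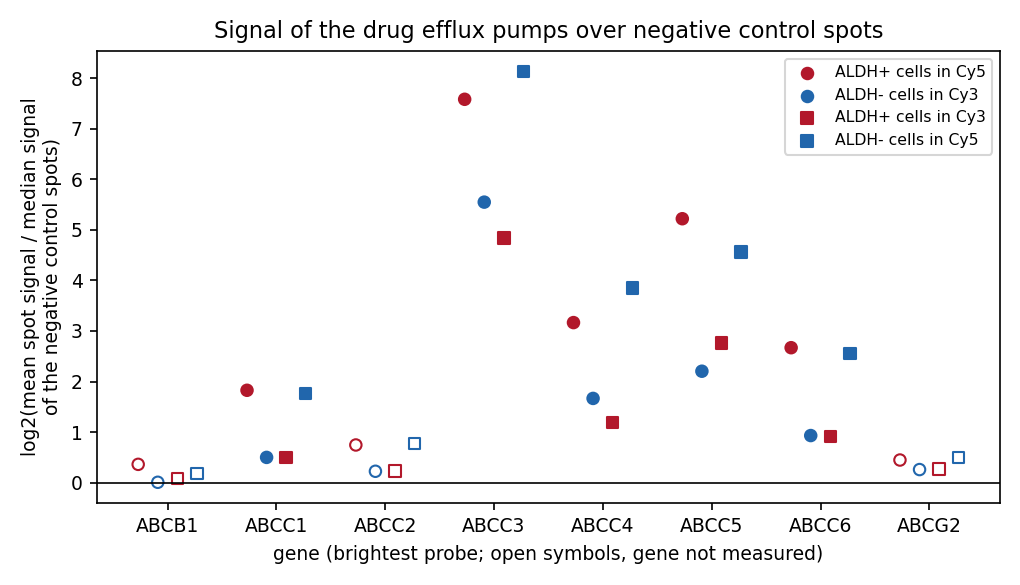
Signal of the brightest probe of each drug efflux pump in each population and dye, as log2 of the mean spot signal over the median of the negative control spots in the same channel (0 is the negative control level). Red is ALDH+, blue is ALDH-, circles are the first array and squares the second; within each dye, ABCB1, ABCC2 and ABCG2 (open symbols) lie below the 5 measured pumps. Distances between genes and between dyes are not comparable, since probes and dyes differ in brightness.

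ABCC3 exports bile salts and glucuronide conjugates. Its brighter probe gave normalised intensities of 5344 in ALDH+ and 9757 in ALDH- cells on the first array, and 4836 and 9411 on the second. ALDH+ cells were thus lower under both dye orientations. The log2 ratios were -0.87 and -0.96, with a mean of -0.91 ± 0.06 (technical SD over 2 arrays), which is 0.530 times the level in ALDH- cells. Counted from the highest ratio, ABCC3 ranked 13582 of the 13720 measured genes. The second ABCC3 probe lies upstream in the gene and was designed on the record of another, shorter transcript. It gave log2 ratios of 0.27 and -0.25, with a mean of 0.01. The 2 probes differed by 0.92 on the log2 scale, and the mean over both was -0.45. The lower ABCC3 value therefore belongs to one of the 2 probes. Which transcripts each probe reads was not tested, and the difference between the probes stays unexplained.

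ABCC4 exports cyclic nucleotides, prostaglandins and nucleotide analogues. Its single probe, which crosses a splice junction, gave normalised intensities of 312 in ALDH+ and 469 in ALDH- cells on the first array, and 305 and 512 on the second. ALDH+ cells were lower under both dye orientations. The log2 ratios were -0.59 and -0.75, with a mean of -0.67 ± 0.11, or 0.629 times the level in ALDH- cells.

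ABCC5, which exports cyclic nucleotides and antifolates, had the highest mean log2 ratio of the measured members in the main processing. ABCA4 was higher with the ratio of the array software, at 0.83 beside 0.57 for ABCC5. Its brightest probe gave normalised intensities of 1170 in ALDH+ and 778 in ALDH- cells on the first array, and 1084 and 805 on the second, with ALDH+ cells higher each time. The mean log2 ratio was 0.51 ± 0.11, or 1.42-fold, and ABCC5 ranked 284 from the top of the 13720 measured genes. Its 3 measured probes gave mean log2 ratios of 0.51, 0.33 and 0.54, and all 3 were above 0 on both arrays. The direction was thus the same for every measured probe of ABCC5. However, the probe at 0.33 gave 0.63 and 0.03 on the 2 arrays, and was above background in ALDH- cells on 1 array. The probes at 0.33 and 0.54 were designed on the record of another transcript than the brightest probe.

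ABCC1, which exports glutathione conjugates and anthracyclines, gave log2 ratios of 0.10 and -0.09, with a mean of 0.01 ± 0.14. Its normalised intensities were 154 and 141 in ALDH+ cells against 143 and 150 in ALDH- cells, so their order changed with the dye orientation. ABCC6, whose loss causes ectopic mineralisation, gave 0.03 and -0.05, with a mean of -0.01 ± 0.06. The 3 measured ABCC6 probes were designed on a short transcript, and 2 of them are also listed for a non-coding record of a copy of the gene, so their signal may be shared with it. The ABCC6 probe for the full-length transcript, printed in 10 spots, was well above background in 10 of them in Cy5 on each array, but in 2 and 1 of them in Cy3, so that it missed the rule in both populations. Outside the pumps, ABCC10, another multidrug exporter, had the mean log2 ratio closest to 0 in subfamily C, at 0.00 ± 0.01.

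In subfamily A, 6 of 12 genes were measured and they spread over the whole range of the family. ABCA9, a member of the lipid transporter branch whose own substrate is not settled, had the lowest ratio of all ABC genes. Its normalised intensities were 3487 in ALDH+ and 6332 in ALDH- cells on the first array, and 3155 and 6639 on the second. ALDH+ cells were lower on both arrays. The log2 ratios were -0.86 and -1.07, with a mean of -0.97 ± 0.15, or 0.512 times the level in ALDH- cells. On the second array alone it passed 2-fold. ABCA9 was read by 1 probe, and whether that probe also binds other RNAs, such as repeat sequences, was not tested. ABCA9 belongs to a cluster on chromosome 17 with ABCA8, ABCA6, ABCA10 and ABCA5, and it was the only one of these 5 genes that was measured.

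ABCA4, the retinal lipid importer of photoreceptors, and ABCA1, which loads cholesterol and phospholipid onto apolipoprotein A-I, were at the other end. ABCA4 gave normalised intensities of 253 in ALDH+ and 169 in ALDH- cells on the first array, and 212 and 158 on the second. Its mean log2 ratio was 0.50 ± 0.11, or 1.42-fold, and it ranged from 0.40 without background correction to 0.83 in the ratio of the array software. ABCA1 gave 293 and 213 on the first array and 260 and 223 on the second, with a mean log2 ratio of 0.34 ± 0.17. ALDH+ cells were the higher population on both arrays for both genes.

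ABCA7, a close relative of ABCA1 that handles phospholipids, went the other way. It gave 218 in ALDH+ and 276 in ALDH- cells on the first array and 216 and 274 on the second, with log2 ratios of -0.34 on each. ABCA3, the lipid carrier of lung surfactant, had ratios of 0.06 and -0.17, and ABCA13 had -0.37 and 0.02. The sign of these last ratios depended on the dye orientation.

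ABCG1 was the only measured gene of the 5 in subfamily G, and it exports cellular cholesterol to HDL particles. It gave normalised intensities of 168 in ALDH+ and 267 in ALDH- cells on the first array, and 178 and 282 on the second. ALDH+ cells were lower on both arrays. The log2 ratios were -0.67 and -0.66, with a mean of -0.67 ± 0.01, or 0.629 times the level in ALDH- cells. ABCG1 was dim, and its log2 ratio was -1.07 in the ratio computed by the array software, which applies a different background treatment. It was the only measured ABC gene past 2-fold by that ratio, by which 0.999% of all measured genes were past 2-fold higher and 2.01% past 2-fold lower. At 1.5-fold, 4.09% of all measured genes were higher and 9.17% lower by the software ratio, beside 1 (ABCA4) and 4 of the 24 ABC genes. Of the 8 genes of cholesterol and phospholipid export on the array, 3 were measured, namely ABCA1, ABCA7 and ABCG1. They differed in direction, with ABCA1 above 0 and the other two below 0 on both arrays.

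**Figure D3:**
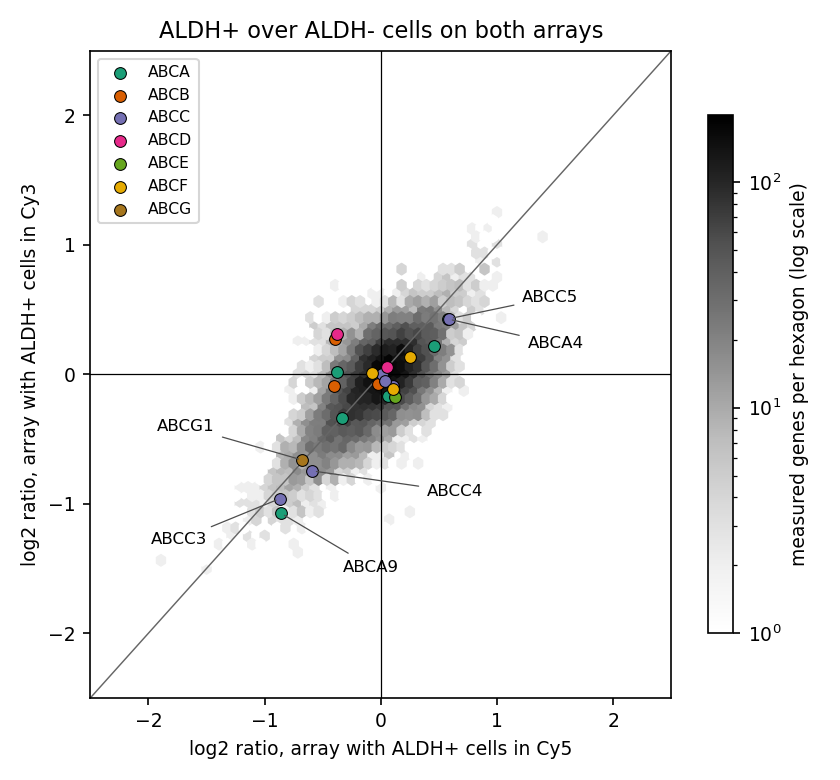
Log2 ratio of ALDH+ over ALDH- cells on the array with ALDH+ RNA in Cy5 (horizontal) and on the array with the dyes exchanged (vertical). Grey hexagons hold the 13720 measured genes and coloured points 22 of the 24 measured ABC genes by subfamily. ABCC5 and ABCA4 lie together at the upper right, and ABCA9, ABCC3, ABCC4 and ABCG1 at the lower left, near the diagonal on which both arrays give the same ratio.

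In subfamily B, the measured genes work in mitochondria or in other inner membranes, and none had a mean ratio past 1.5-fold. ABCB10, tied to haem synthesis, gave log2 ratios of -0.40 and 0.28. ABCB6, linked to porphyrin transport, was below 0 on both arrays at -0.40 and -0.09, with a mean of -0.25 ± 0.22. ABCB8, another mitochondrial carrier, gave -0.03 and -0.07. The ABCB10 ratios were far apart on the 2 arrays, and its other probe gave -0.42 and 0.42, so that the sign of both probes followed the dye orientation.

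The peroxisomal and soluble members stayed near 0. ABCD3, a peroxisomal importer of fatty acids, gave log2 ratios of -0.38 and 0.31, a sign that followed the dye orientation. Its other measured probe gave 0.07 and -0.21, with the opposite dependence on the dye. ABCD4, which acts in lysosomal cobalamin transport, gave 0.05 on each array. ABCE1, which splits ribosomes for recycling, gave 0.12 and -0.17. ABCF1 and ABCF3 had means of -0.00 ± 0.15 and -0.03 ± 0.06. ABCF2 was above 0 on both arrays, at 0.25 and 0.13, with a mean of 0.19 ± 0.08, the highest of the 4 translation proteins. The accession of its probe now belongs to a joined ABCF2-H2BK1 record, so its signal may come from either transcript.

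Genes of the same family under other names were read beside the members. TAP1 and TAP2, which carry peptides into the endoplasmic reticulum for presentation by MHC class I, and the chloride channel CFTR were all measured and all higher in ALDH+ cells on both arrays. TAP1 had log2 ratios of 0.77 and 0.49, with a mean of 0.63 ± 0.20, or 1.55-fold. TAP2 had a mean of 0.32 ± 0.09 and CFTR of 0.31 ± 0.05, which was 0.60 in the ratio of the array software.

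Of 16 other transporters of drugs and platinum, 9 were measured, with a median log2 ratio of 0.04. The copper pump ATP7B, which also sequesters cisplatin, had the lowest value and was the only one past 1.5-fold. Its log2 ratios were -0.56 and -0.88, with a mean of -0.72 ± 0.23, or 0.606 times the level in ALDH- cells. The copper transporter SLC31A2 was highest, at 0.22 ± 0.13. Of 16 nuclear receptors and transcription factors that act on ABC genes, 11 were measured, with a median of -0.02. They ran from PPARA at -0.43 ± 0.03 to PPARG at 0.31 ± 0.05, with none past 1.5-fold in the main processing. In the ratio of the array software, PPARA at -0.77 and PPARG at 0.65 were past it. Of 14 protein partners of ABC transporters, 12 were measured with a median of -0.11, and none passed 1.5-fold in the main processing. They ran from GCN1, a partner of the F subfamily in translation control, at -0.50 ± 0.25, to PDZK1, a scaffold of apical transporters, at 0.55 ± 0.10. PDZK1 was above background in ALDH- cells on 1 array, and its log2 ratio was 1.22 in the ratio of the array software.

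The markers of the line were checked in the same way. All 5 epithelial markers (EPCAM, KRT8, KRT18, KRT19 and CDH1) and PAX8, listed here as a marker of ovarian clear cell carcinoma, were measured. Whether these markers tell RMG1 from other ovarian lines was not tested. The log2 ratio was -0.74 for PAX8, and between -0.15 and 0.13 for the epithelial markers. Of markers of other cell types, 0 of 5 fibroblast, 2 of 5 leukocyte (PTPRC and CD14) and 1 of 3 endothelial markers (CDH5) were measured. CD14 had a mean log2 ratio of 0.45 ± 0.18 while CD3E and ITGAM were not well above background, and whether other cells contributed to the ABC values was not tested.

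The arrays were alike in quality. Each held 43118 gene spots, of which 531 and 519 were outliers and 0 were saturated. Well above background were 25999 and 27979 spots in the Cy5 channels and 21825 and 21697 in the Cy3 channels. Across the 24 ABC genes the arrays correlated with Pearson's r of 0.77 and Spearman's rho of 0.51, beside 0.69 and 0.59 across all measured genes, where the points share the same 2 extracts. Measured ABC genes were dimmer than the rest, with a median of 7.94 for the mean log2 intensity of a gene, beside 8.76 over all measured genes. The genes are also long, with a median of 61111 bases beside 26866 over the 11812 measured genes with a known length. The log2 ratio and gene length had a Spearman's rho of 0.02 across the 24 members, and of -0.16 across all genes.

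**Figure D4:**
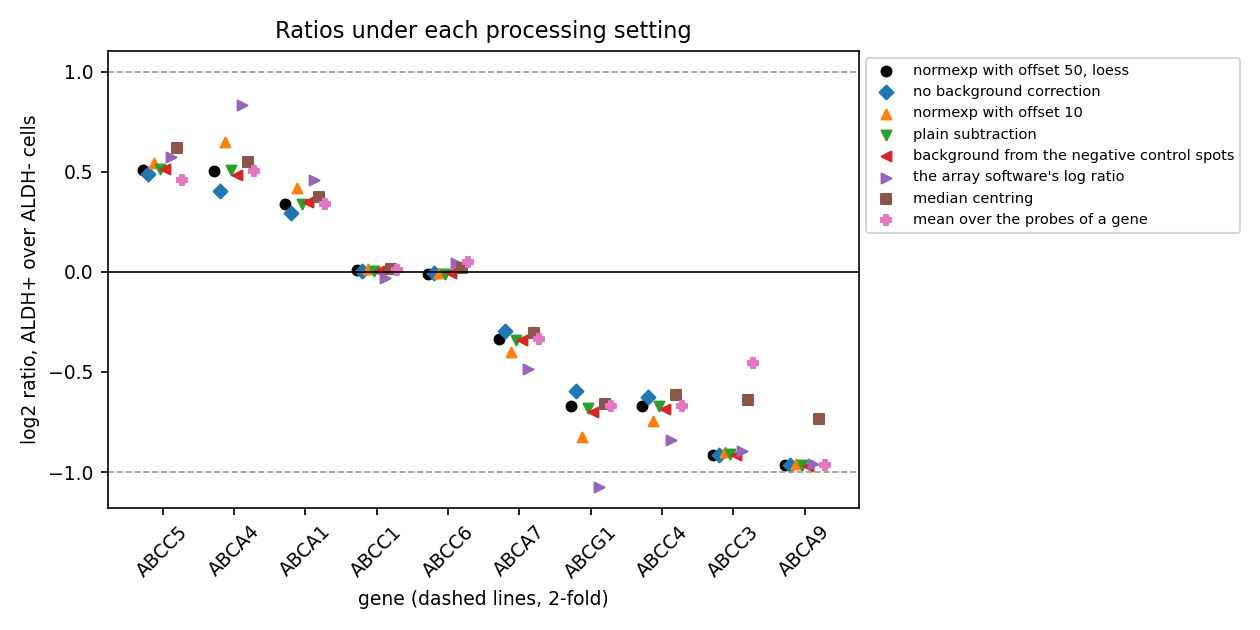
Log2 ratio of ALDH+ over ALDH- cells, averaged over both arrays, for 10 ABC genes under the main processing (black) and 7 other settings. ABCC5, ABCA4 and ABCA1 stay above 0 and ABCA7, ABCG1, ABCC4, ABCC3 and ABCA9 stay below 0 under all of them, while ABCC1 and ABCC6 lie close to 0. Only ABCG1 under the ratio of the array software crosses a dashed 2-fold line.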

How the data were processed

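The authors labelled total RNA of sorted RMG1 cells and hybridised both populations on 2 Agilent two-colour arrays with exchanged dyes. The deposited scanner files hold spot intensity (mean signal and median local background per channel) and the log10 ratio of the array software. The software is version 10.7.3.1 in the file headers and 8.5.1.1 in the submitters' processing notes. A deposited joined table holds the log10 ratio of each array, which differs from the software ratio by at most 1.7e-09 on the log2 scale, and 4 signal columns that were not used.

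Intensities were corrected with normexp (offset 50) and normalised by loess within each array in limma 3.58.1 (R 4.3.3), leaving control and outlier spots out of the curve. Spots of a probe were averaged, and ratios were turned to ALDH+ over ALDH- and averaged over arrays. The offset draws the ratios of dim probes towards 0. The brightest measured probe stood for a gene, and a probe was measured if, for one population at least, over 50% of its spots passed the background flag of the software on each array. Further steps used Python 3.11.15 with pandas 2.3.3. The normalisation was tested on simulated data. The 2 arrays limit the precision, and no test was run. Symbols came from the array files, and 65 of 67 member probes matched a RefSeq accession. Of 3 names with a suffix (pseudogenes and copies), none was taken as a member.

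Named genes are the 8 pumps, the 5 highest and 5 lowest measured members, the highest and lowest of each subfamily, and any past 2-fold; the remaining measured members were named after their values were seen. The values of some of these genes and markers are not reported here. From the other lists, those past 1.5-fold and the highest and lowest are named. TAP2, CFTR and the markers were also named after their values were seen. The members and lists were chosen with earlier results of these data known. Alternatives covered the background correction, normalisation, filter, probe rule, threshold and each array alone.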

Additional observations from a re-analysis of the deposited data

How the results depend on the processing

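Among the ABC genes that each setting counted, none was past 2-fold higher in ALDH+ cells. The number past 2-fold lower was 0, and became 4 at a threshold of 1.5-fold, 1 with the ratio of the array software and 1 with the deposited joined table (ABCG1 in both), and 0 to 1 when each array was left out in turn (ABCA9 on the second array alone). At 1.5-fold, counted under the other settings after the data were seen, the number lower was 3 with the mean over probes and 4 otherwise. The number higher was 0, and became 1 with an offset of 10, the ratio of the array software or the joined table (ABCA4) and with median centring (ABCC5), and 0 to 1 with each array left out in turn. The median log2 ratio of the measured members stayed between -0.060 and -0.0057. That of the measured pumps lay between -0.088 and 0.033 and changed sign, each time by less than its spread. Of 17 named genes, ABCA9, ABCC3, ABCC4, ABCG1, ABCA7 and ABCB6 stayed below 0 under every setting. ABCA1, ABCA4, ABCC5, ABCD4 and ABCF2 stayed above 0 under every setting. ABCA9 ran from -1.07 to -0.74 and ABCC3 from -0.96 to -0.45 (the mean of its probes). ABCG1 ran from -1.07 to -0.59 and ABCC5 from 0.43 to 0.62. The sign of ABCC1, ABCC6, ABCE1 and ABCF3 turned under at least 1 setting, and the cause was not tested. Without loess, centring on the median of the gene spots that were not outliers left the median of all measured genes at 0.56 and -0.43 on the 2 arrays and 0.07 in their mean. The 22 ABC genes that were not measured are limited by signal. No paired analysis was possible because each population was 1 extract, and each ratio already sets both populations against each other on 1 array.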
